A study of Mus musculus with 4 samples.

Results

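The 10 members examined here are genes of the Hippo-YAP pathway and its CCN targets, followed through the cell classes of mouse hearts after inducible targeting of Pkp2. The members were taken by symbol from the gene lists of the deposited matrices, and all 10 were found among the 44628 genes there. They fall into 3 roles: the transcriptional regulators Yap1, Wwtr1 (which encodes TAZ) and Tead1, the regulators of their activity Lats2 and Ajuba, and the induced genes Ankrd1, Ccn1, Ccn2, Ccn4 and Ccn5.

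YAP and TAZ carry signals of tension, cell contact and matrix stiffness to the nucleus. There they have no DNA-binding part of their own and act through TEAD factors. The LATS kinases phosphorylate YAP and TAZ and hold them in the cytoplasm, and LIM proteins such as Ajuba bind LATS and restrain it. Much of this control is exerted on protein location, which RNA counts do not measure. Ccn1 and Ccn2, formerly Cyr61 and Ctgf, and Ankrd1 are widely used as transcriptional readouts of YAP and TEAD, and in the heart Ankrd1 is also known as a stretch-responsive gene of cardiomyocytes.

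The study made 4 single-nucleus RNA libraries on the BD Rhapsody platform, which marks transcripts in microwells with a label for the nucleus and a unique molecular identifier (UMI) for the molecule. The groups were Pkp2 cKO (titled PKP2fl/fl MCM cre/+, 2 libraries, called cKO 1 and cKO 2) and control (titled MCM cre/+, 2 libraries, called control 1 and control 2). All mice were 8 weeks old and tamoxifen-treated, hearts were taken 2 weeks after tamoxifen, and each library pooled the hearts of 2 mice, 1 male and 1 female by the design text. MCM is the tamoxifen-inducible Cre carried by both groups according to the titles. The sources used here do not give the promoter that drives it, and the genotype tag of the controls reads wt. The library is the replicate (n = 2 per group), and p-values measure the spread between such pools.

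The sequence before the start of each gene is the place where TEAD binding would be looked for in these readout genes. The table of RefSeq promoters used here (GRCm38.p6) held the 250 bases before the start for 6 of the 10 members, and Tead1, Ccn2, Ccn4 and Ccn5 were not in it. The TEAD core letters GGAATG, or CATTCC where the core lies on the other strand, were searched on both strands, and 12.6% of all 32851 promoters of that length held at least 1 match, while 1.02% held at least 2. Ankrd1 had 2 matches, 210 and 123 bases before its start. Ccn1 had 1, at 103 bases, and Yap1 had 1, at 141 bases. Ajuba had 2, at 186 and 164 bases, while Lats2 had none in any of its RefSeq entries and Wwtr1 had 1 in each of its entries. A match describes letters and not a bound site. Distances count from the RefSeq starts, which can differ from the GENCODE gene bounds used elsewhere in this text. The Ankrd1 window lies inside the GENCODE bounds of the gene (36111961 to 36120099), and so do the Lats2 windows. The promoters of Ankrd1 (chr19:36119845-36120094, minus strand) and Ccn1 (chr3:145649986-145650235, minus strand), which rose in cKO cardiomyocytes, are printed with that of Ajuba (chr14:54577662-54577911, minus strand), which holds as many matches as Ankrd1 and did not pass the test in any class. Capitals mark the matches, and each sequence reads 5′ to 3′ along the gene's strand.
Ankrd1: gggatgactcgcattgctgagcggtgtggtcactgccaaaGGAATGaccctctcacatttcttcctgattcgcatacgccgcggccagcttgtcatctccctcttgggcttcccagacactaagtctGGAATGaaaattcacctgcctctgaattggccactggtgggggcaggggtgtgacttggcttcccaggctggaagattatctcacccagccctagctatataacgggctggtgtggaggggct
Ccn1: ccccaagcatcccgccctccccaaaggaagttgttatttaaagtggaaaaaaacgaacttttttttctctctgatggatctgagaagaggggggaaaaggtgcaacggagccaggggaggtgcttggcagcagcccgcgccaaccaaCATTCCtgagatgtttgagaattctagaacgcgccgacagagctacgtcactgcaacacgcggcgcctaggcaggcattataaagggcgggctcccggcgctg
Ajuba: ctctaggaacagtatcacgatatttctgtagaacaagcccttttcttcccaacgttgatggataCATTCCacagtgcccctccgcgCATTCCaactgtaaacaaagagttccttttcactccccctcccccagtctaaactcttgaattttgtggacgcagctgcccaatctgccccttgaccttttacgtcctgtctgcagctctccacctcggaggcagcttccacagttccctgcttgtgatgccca

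After filtering, 18739 nuclei in 25 clusters remained, with 13491201 to 40536562 UMIs per library before filtering. Cell classes were named from marker lists, and cardiomyocytes (6769 nuclei), fibroblasts (3741), endothelial nuclei (4120, endocardial ones included), mural nuclei (1405) and macrophages (1967) had enough counts in every library to be tested. The samples are labelled cardiomyocyte as their cell type although these classes were present in every library, so the sort as well as the tissue can set their shares. Pkp2 RNA in cardiomyocytes was 627 and 594 CPM (counts scaled to 1000000 UMIs of the class) in cKO libraries and 556 and 538 CPM in control libraries (log2 fold change 0.11, edgeR adjusted p = 0.803). The part of the gene between the loxP sites is not given, so this does not check the deletion. Esr1, part of which tamoxifen-inducible Cre lines carry, gave 3652 and 3346 CPM in cKO cardiomyocytes and 74.8 and 62.5 CPM in control cardiomyocytes. Effects of Pkp2 and of a difference in Cre expression cannot be told apart in these groups. Xist, which female cells transcribe for X inactivation, had 5 and 12 UMIs in cKO and 5 and 9 UMIs in control libraries, which goes against pools that are partly female. Library pairs shared at most 2 cell labels.

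**Figure D1:**
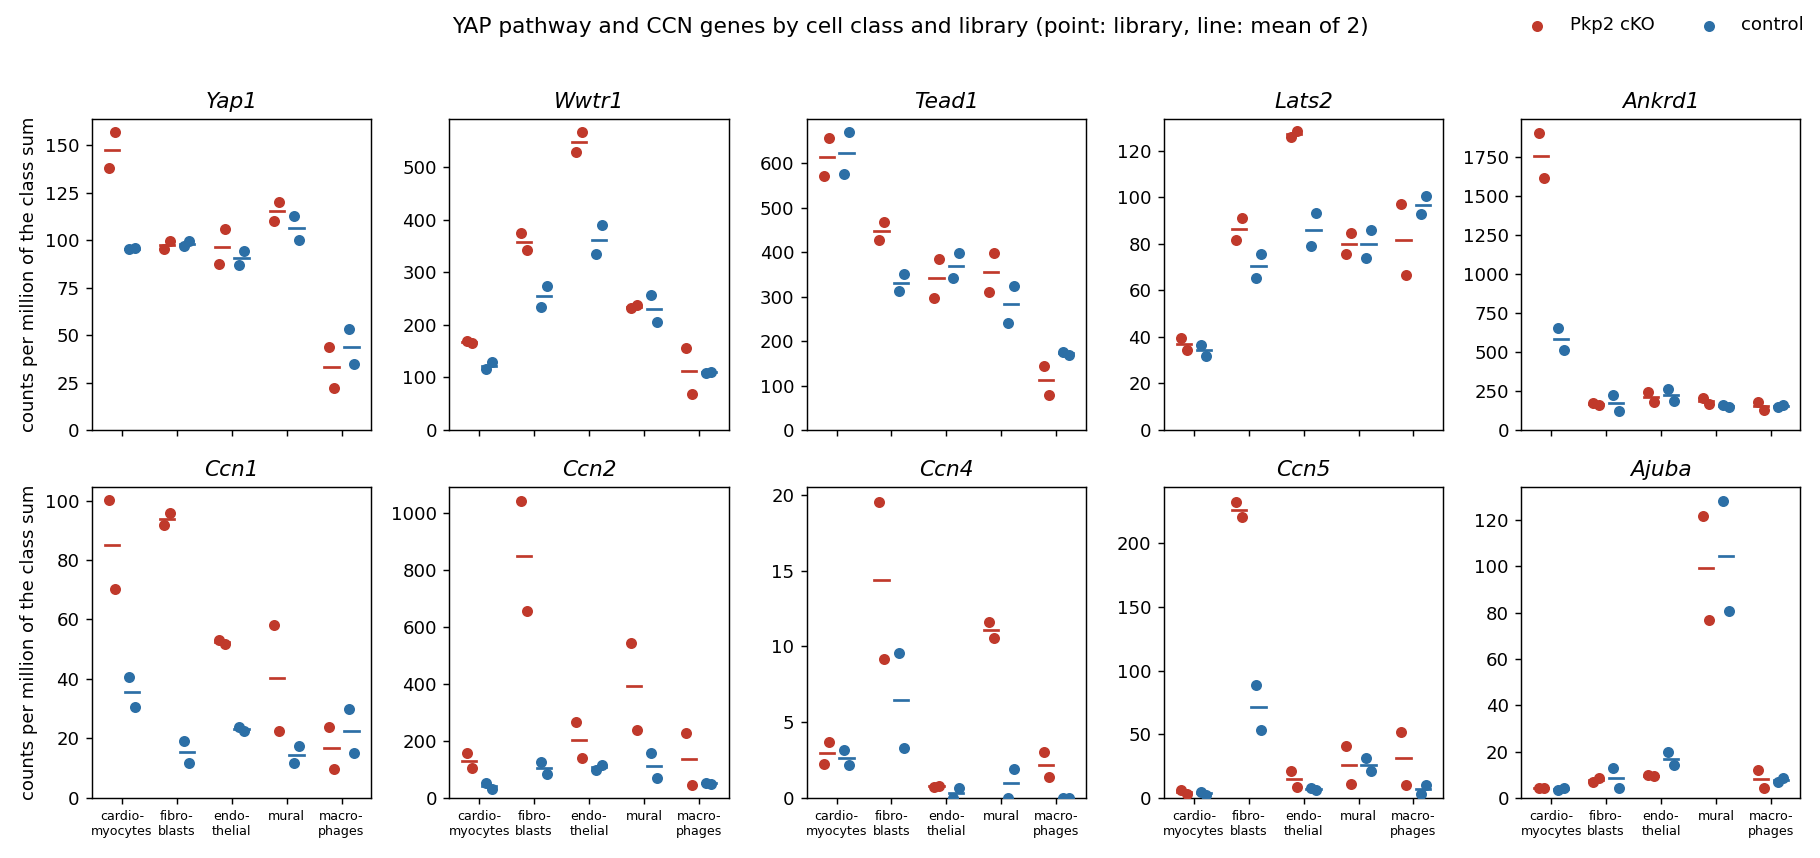
CPM of the summed counts of a class (linear axis from 0, a scale of its own for each gene) for the 10 members, with cKO libraries to the left of control libraries in each class. Points are libraries and lines are means of 2 libraries. Ankrd1 in cardiomyocytes and Ccn2 and Ccn5 in fibroblasts show cKO libraries well above both control libraries, while Ajuba is high in mural nuclei of both groups.

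The members were unevenly spread over the classes, and for 6 of the 10 the class with the highest mean was the same in both groups. These values are means of 2 libraries on the raw CPM scale. Tead1 was highest in cardiomyocytes, with 613 CPM in cKO and 622 CPM in control libraries, and lowest in macrophages, with 112 CPM in cKO and 173 CPM in control libraries. Wwtr1 was highest in endothelial nuclei, with 548 CPM in cKO and 363 CPM in control libraries, and fibroblasts came next, with 359 CPM in cKO and 254 CPM in control libraries. Ankrd1 was highest in cardiomyocytes of both groups.

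Ajuba stood out in mural nuclei (pericytes and vascular smooth muscle), with 99.2 CPM in cKO and 105 CPM in control libraries, against at most 16.9 CPM in any other class of either group. Ccn5 was highest in fibroblasts, with 227 CPM in cKO and 71.3 CPM in control libraries. Ccn4 also had its highest mean there in both groups, at a low level. In control fibroblasts a single nucleus held 5 of the 6 Ccn4 UMIs of control 1, and another 6 of the 7 of control 2. Its place in control libraries thus rests on few nuclei.

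For the other 4 members the order depended on the group. Ccn2 was highest in fibroblasts of cKO libraries, at 847 CPM, with mural nuclei next at 390 CPM. In control libraries mural nuclei (113 CPM), endothelial nuclei (106 CPM) and fibroblasts (106 CPM) had nearly the same mean, and their libraries overlapped. Ccn1 was highest in fibroblasts (93.8 CPM) and cardiomyocytes (85.1 CPM) of cKO libraries, whose values overlapped, and in cardiomyocytes (35.6 CPM) of control libraries. Yap1 was highest in cardiomyocytes of cKO libraries (147 CPM), while in control libraries mural nuclei (106 CPM), fibroblasts (98.2 CPM) and cardiomyocytes (95.6 CPM) lay close together, and it was lowest in macrophages of both groups. Lats2 was highest in endothelial nuclei of cKO libraries (127 CPM) and in macrophages of control libraries (96.6 CPM), and lowest in cardiomyocytes of both groups. These comparisons between classes are descriptions without a test, because the classes were made from the same counts.

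In cardiomyocytes, the contractile cells, the readout genes Ankrd1, Ccn1 and Ccn2 were higher in cKO libraries, and the regulators showed smaller differences that did not pass. Of the 10 members tested there, 3 passed, all of them higher, where 2.89% of all 15406 genes passed in either direction and 1.32% passed as higher (edgeR quasi-likelihood test, Benjamini-Hochberg adjusted p under 0.05). Because counts were summed over nuclei, more nuclei with a transcript and more transcript per nucleus cannot be told apart in these values. The median log2 fold change of the 10 members was 0.32, against 0.00 for all genes.

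Ankrd1 encodes a titin-associated ankyrin repeat protein of the sarcomere that also enters the nucleus (ENSMUSG00000024803.10, GRCm38 chromosome 19, 36111961 to 36120099, minus strand). In cardiomyocytes it measured 1873 and 1606 CPM in cKO libraries and 667 and 524 CPM in control libraries. Both cKO values lay above both control values. CPM given for a class as a whole beside a test are scaled by trimmed means (TMM), and those for class averages, clusters and marker sums are raw. The log2 fold change was 1.55 (SE 0.18, adjusted p = 0.00313), or 2.92-fold. When each nucleus with at least 1000 UMIs was thinned to 1000 UMIs, 58.5% (95% exact binomial interval 55.4 to 61.4) and 57.0% (54.4 to 59.6) of cKO cardiomyocytes had an Ankrd1 UMI, against 29.4% (27.0 to 31.9) and 27.3% (25.6 to 29.1) of control cardiomyocytes. These intervals cover counting error only. Thinning left out shallower nuclei, here 111 and 106 in cKO and 62 and 69 in control libraries. The loss was unequal in other classes, such as 181 of 493 fibroblasts in control 1 against 48 of 1375 in cKO 2. Unthinned, the shares were 78.8% and 78.0% in cKO libraries and 49.1% and 49.6% in control libraries, at median depths of 4314 and 5290 UMIs in cKO and 3169 and 3966 UMIs in control nuclei.

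Outside cardiomyocytes Ankrd1 was found at 153 to 216 raw CPM on average and did not pass the test in any of the 4 classes. In fibroblasts its log2 fold change was -0.05 (adjusted p = 0.970), in macrophages -0.02 (0.993), in endothelial nuclei -0.13 (0.898) and in mural nuclei 0.27 (0.998). The 10 cardiomyocyte markers, such as Ttn and Myh6, were also found in these classes, at 5697 to 20051 CPM summed, against 63736 to 65901 CPM in cardiomyocytes. Per 1000 cardiomyocyte marker counts, Ankrd1 gave 28.8 and 24.6 counts in cKO cardiomyocytes and 10.1 and 8.01 in control cardiomyocytes. In the 4 other classes the same ratio was 17.6 to 28.2 in cKO libraries and 11.6 to 24.9 in control libraries. In macrophages 12.4% and 10.8% of cKO nuclei and 12.5% and 12.9% of control nuclei had an Ankrd1 UMI after thinning. The Ankrd1 shares of fibroblasts, at 14.04% and 10.7% in cKO and 14.1% and 10.5% in control libraries, lie near that level, with intervals that overlap those of macrophages, and no expression in fibroblasts is read from them. Averaged over the 4 libraries, the share was 15.6% in endothelial nuclei and 13.6% in mural nuclei, against 12.2% in macrophages. The source of the Ankrd1 UMIs outside cardiomyocytes was not tested.

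**Figure D2:**
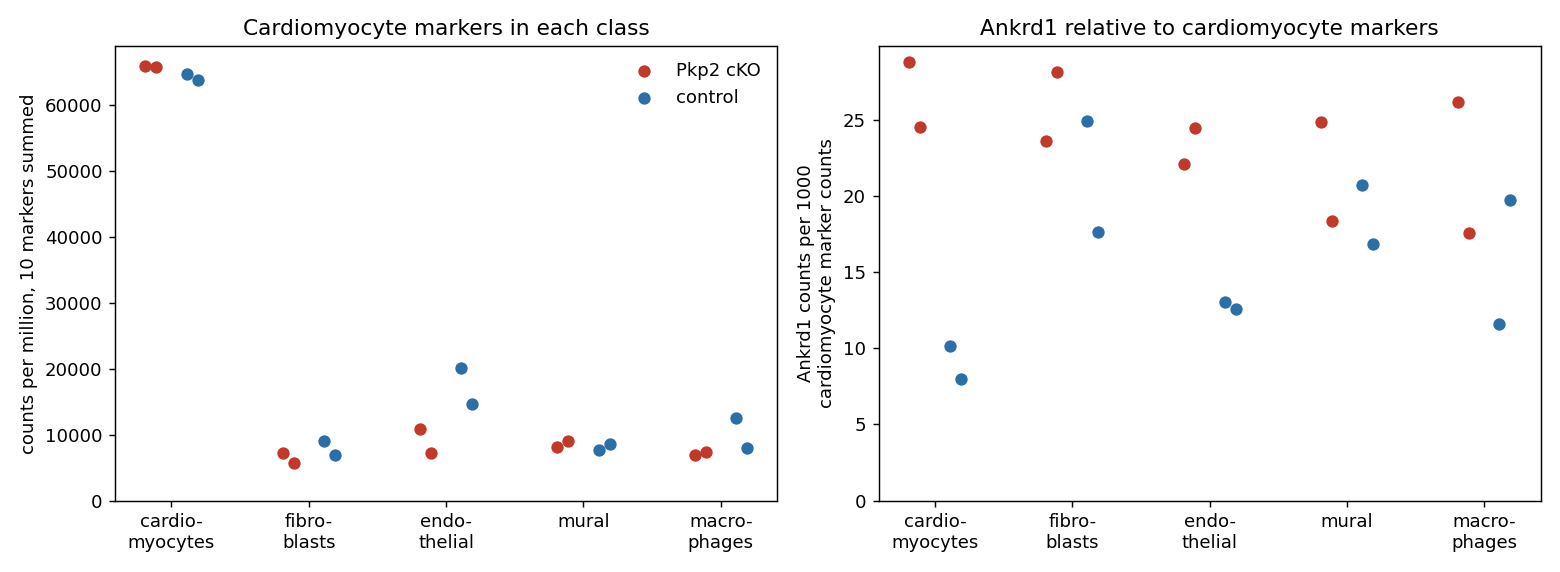
Left, the summed CPM of 10 cardiomyocyte markers in each class; right, Ankrd1 counts per 1000 counts of those markers (linear axes from 0, points are libraries, cKO left of control). The markers are far lower outside cardiomyocytes, and the ratio separates cKO from control cardiomyocytes, at 28.8 and 24.6 against 10.1 and 8.01, and cKO from control endothelial nuclei, at 22.1 and 24.5 against 13.1 and 12.6. In endothelial nuclei the markers, which divide the ratio, were lower in both cKO libraries than in either control library. Endothelial Ankrd1 itself did not pass (log2 fold change -0.13, edgeR adjusted p = 0.898).

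Within cardiomyocytes, Ankrd1 was unevenly spread over the clusters, and the clusters held different shares of each group. A cluster with Nppb, Abra and Xirp2 among its leading genes had the highest Ankrd1 and held 32.4% and 37.0% of cKO cardiomyocytes, against 5.51% and 3.86% of control cardiomyocytes. Inside that cluster Ankrd1 was 3075 and 2423 CPM in cKO libraries and 2452 and 2005 CPM in control libraries, so the groups overlapped. In the cluster led by Esr1, Myh7 and Gh it was 1148 and 1051 CPM in cKO and 840 and 752 CPM in control libraries, which did not overlap. The cluster with the lowest Ankrd1 held 2.61% and 2.56% of cKO and 43.5% and 41.2% of control cardiomyocytes. These values were not tested, since the clusters were made from the same counts. At matched depth, Ankrd1 and Nppb shared nuclei in cardiomyocytes of every library, with odds ratios of 2.71 and 2.20 in cKO and 2.87 and 2.56 in control libraries. Ankrd1 and Esr1 gave odds ratios of 0.48 and 0.47 in cKO libraries, below 1, and of 1.14 and 1.42 in control libraries. The sharing of Ankrd1 and Nppb was not particular to cardiomyocytes. In the other tested classes their odds ratios ran from 1.24 to 7.75, on 1 to 22 nuclei with both.

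Ccn2 encodes connective tissue growth factor, a secreted matricellular protein (ENSMUSG00000019997.12, chromosome 10, 24595442 to 24598683). In cardiomyocytes it measured 155 and 103 CPM in cKO libraries and 51.1 and 30.05 CPM in control libraries. The groups did not overlap, and the log2 fold change was 1.69 (SE 0.27, adjusted p = 0.0132). Ccn1, a related secreted adhesion ligand (ENSMUSG00000028195.5, chromosome 3, 145646976 to 145649981, minus strand), measured 98.6 and 69.9 CPM in cKO and 41.4 and 31.3 CPM in control cardiomyocytes. Its groups did not overlap either, with a log2 fold change of 1.22 (SE 0.21) at an adjusted p of 0.0190. Summed fibroblast markers in cardiomyocytes were 308 and 230 CPM in cKO and 318 and 237 CPM in control libraries. The part of fibroblast transcripts in the Ccn1 and Ccn2 values of cardiomyocytes was not tested. In the Nppb cluster Ccn1 was 141 and 101 CPM in cKO and 133 and 86.9 CPM in control libraries, which overlap, and Ccn2 was 241 and 157 CPM in cKO and 122 and 73.3 CPM in control libraries. Gm15270 overlaps Ccn2 on the opposite strand and is also listed in the files, as are Gm20416 for Yap1 and 2310014F06Rik for Tead1. The sources used here do not say whether counting used strand, so reads of such pairs cannot be told apart.

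In fibroblasts, the main matrix-producing cells, Ccn1, Ccn2 and Ccn5 were higher in cKO libraries and no member passed as lower. Of the 10 members tested, 3 passed, all higher, where 3.47% of all 12173 genes passed in either direction and 2.13% as higher. Ccn2 measured 1022 and 678 CPM in cKO fibroblasts and 128 and 88.6 CPM in control fibroblasts. The lower cKO library still stood several times above both control libraries, and the log2 fold change was 3.01 (SE 0.29, adjusted p = 0.000216), or 8.04-fold. After thinning, 40.6% and 30.4% of cKO fibroblasts and 12.5% and 6.23% of control fibroblasts had a Ccn2 UMI, against 10.4% and 2.92% of cKO and 2.78% and 4.37% of control macrophages. Without thinning the fibroblast shares were 48.0% and 42.8% in cKO and 12.2% and 9.68% in control libraries.

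Ccn1 measured 90.2 and 99.1 CPM in cKO fibroblasts and 19.1 and 12.5 CPM in control fibroblasts. Both cKO libraries were close to each other and far above the controls (log2 fold change 2.70, SE 0.29, adjusted p = 0.000365). Ccn5, formerly Wisp2, encodes a CCN protein that lacks the C-terminal domain of its relatives (ENSMUSG00000027656.8, chromosome 2, 163820861 to 163833146). It measured 229 and 228 CPM in cKO fibroblasts and 89.3 and 56.6 CPM in control fibroblasts, without overlap (log2 fold change 1.71, SE 0.25, adjusted p = 0.00281). Ccn4, formerly Wisp1, a Wnt-induced relative, was low, with 19.2 and 9.47 CPM in cKO and 9.56 and 3.51 CPM in control fibroblasts on 6 to 30 counts per library. Its groups overlapped and it did not pass (log2 fold change 1.32, SE 0.61, adjusted p = 0.368).

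The fibroblast rise differed between clusters. A cluster with Postn, Cilp and Nox4 among its leading genes held 88.1% and 80.4% of cKO fibroblasts and 15.4% and 8.53% of control fibroblasts. A cluster with Scara5 and Col6a6 among its leading genes held 6.42% and 11.1% of cKO and 74.8% and 87.0% of control fibroblasts. Inside the Postn cluster Ccn2 was 1143 and 737 CPM in cKO and 314 and 344 CPM in control libraries, without overlap. Inside the Scara5 cluster it was 92.6 and 53.9 CPM in cKO and 88.3 and 54.4 CPM in control libraries, nearly equal. Ccn5 was 252 and 254 CPM in cKO and 195 and 160 CPM in control libraries in the Postn cluster. In the Scara5 cluster Ccn5 was 15.4 and 33.7 CPM in cKO and 52.5 and 42.1 CPM in control libraries. That cluster held 42 nuclei of cKO 1 and 153 of cKO 2, against 369 of control 1 and 1061 of control 2. Its Ccn2 and Ccn5 values in cKO 1 thus rest on few nuclei, and no direction is read from them. Ccn1 was 84.2 and 70.5 CPM in cKO and 42.5 and 18.9 CPM in control libraries in the Postn cluster, and reached 612 CPM in a cluster led by Il6 and Ptx3 that came almost wholly from cKO 2 (103 of its 110 nuclei). Without that cluster and a like endothelial cluster, the same 3 members passed in fibroblasts. None of these cluster values was tested. Summed fibroblast markers were themselves higher in cKO fibroblasts, at 14249 and 11412 CPM, against 9744 and 8400 CPM in control fibroblasts, and their part in these values was not tested.

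**Figure D3:**
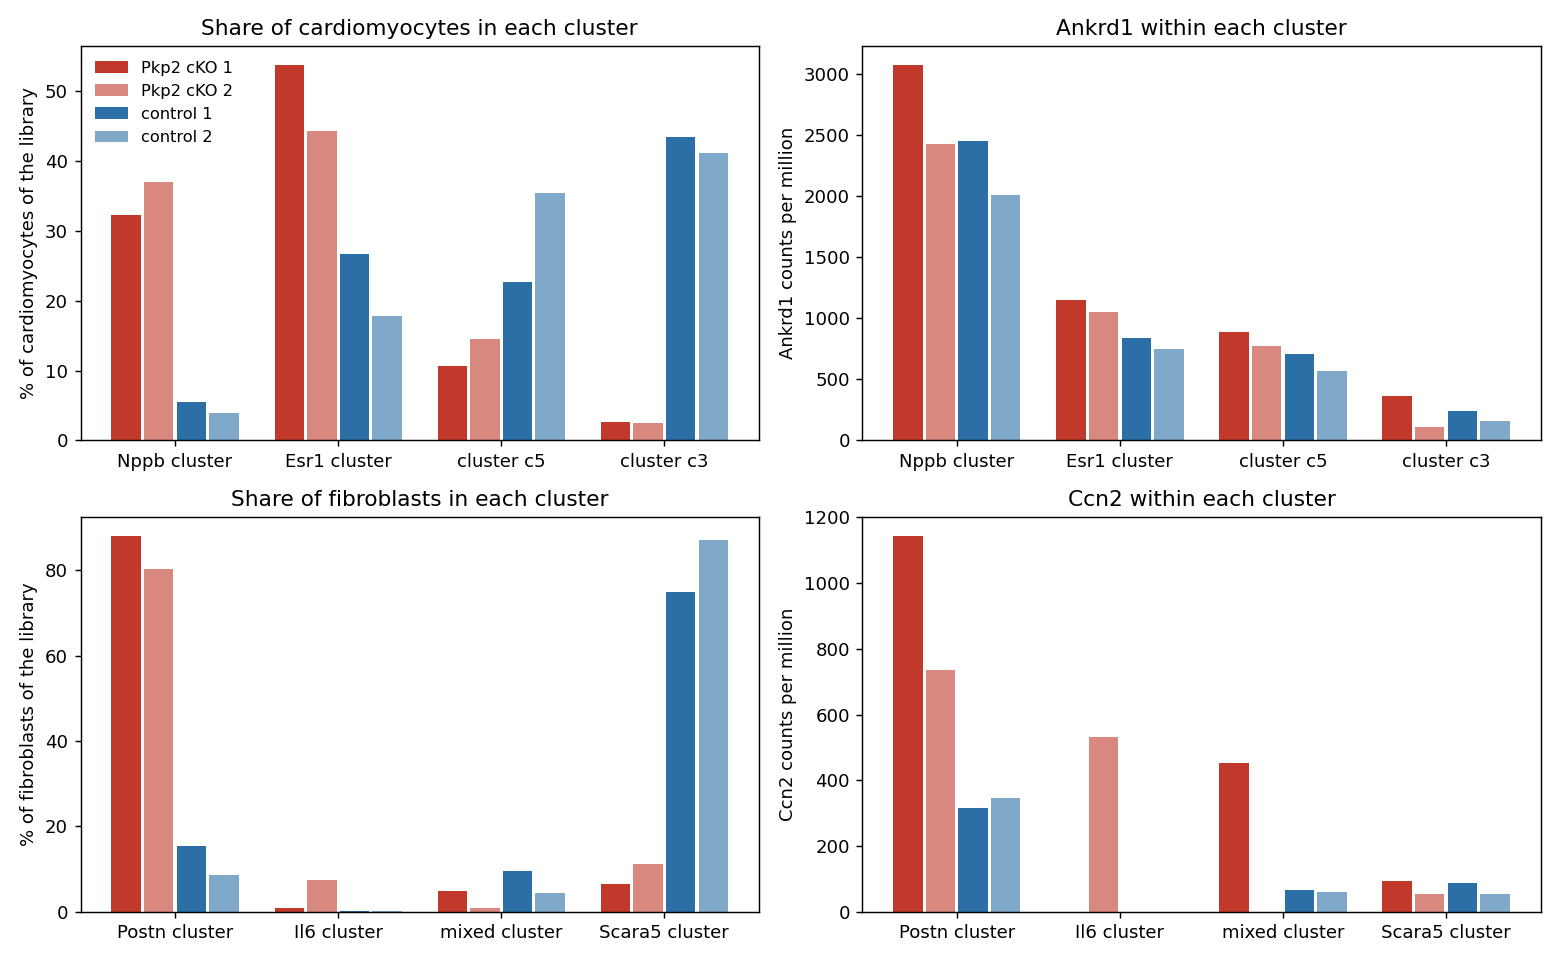
Left, the share of the cardiomyocytes or fibroblasts of each library in the clusters named below the bars; right, CPM of Ankrd1 or Ccn2 inside each cluster (bars from 0, cKO libraries left of control libraries; clusters with under 20 nuclei in a library have no bar on the right, and a small cardiomyocyte cluster is left out). The Postn cluster held 88.1% and 80.4% of cKO and 15.4% and 8.53% of control fibroblasts, and Ccn2 inside it was higher in both cKO libraries, while the Scara5 cluster had nearly equal Ccn2.

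Among the regulators, Yap1, the coactivator itself (ENSMUSG00000053110.14, chromosome 9, 7931999 to 8004596, minus strand), measured 136 and 156 CPM in cKO cardiomyocytes and 97.1 and 98.4 CPM in control cardiomyocytes. The groups did not overlap, but the difference did not pass (log2 fold change 0.58, SE 0.14, adjusted p = 0.0778). Wwtr1 was alike, at 167 and 165 CPM in cKO and 118 and 132 CPM in control cardiomyocytes (log2 fold change 0.40, adjusted p = 0.219). Tead1, the DNA-binding partner, overlapped between the groups at 563 and 653 CPM in cKO and 587 and 686 CPM in control cardiomyocytes. Lats2, the kinase, also overlapped, at 39.0 and 34.4 CPM in cKO and 37.2 and 32.7 CPM in control cardiomyocytes. The 3 low members also overlapped in cardiomyocytes: Ccn4 was 2.22 and 3.67 CPM in cKO and 3.22 and 2.20 CPM in control libraries, Ccn5 was 5.72 and 2.72 CPM in cKO and 5.03 and 2.38 CPM in control libraries, and Ajuba was 4.25 and 4.26 CPM in cKO and 3.62 and 4.31 CPM in control libraries.

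In fibroblasts Wwtr1 was 369 and 354 CPM in cKO and 234 and 290 CPM in control libraries, and Tead1 was 419 and 484 CPM in cKO and 312 and 370 CPM in control libraries. Yap1 was nearly equal there, at 93.6 and 103 CPM in cKO and 97.2 and 105 CPM in control libraries. In this class Yap1 had a log2 fold change of -0.04, Wwtr1 of 0.45, Tead1 of 0.40 and Lats2 of 0.25, with adjusted p from 0.390 to 0.968. Wwtr1, Tead1 and Lats2 did not overlap between the groups there, while Yap1 did. Here and in the other classes, lack of overlap is a description and not a test. With 2 libraries per group an exact permutation test cannot go below p = 0.333. The share of all genes without overlap was not counted. Ajuba did not pass in any class tested, and in mural nuclei, where it was most abundant, it measured 124 and 83.7 CPM in cKO and 134 and 87.2 CPM in control libraries (log2 fold change -0.05, SE 0.33).

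In endothelial nuclei, which line vessels and chambers, 0 of the 9 members tested passed, where 2.08% of all 11515 genes passed in either direction and 0.521% as higher. DESeq2 also called 0 members. At an unadjusted p under 0.05, 4 of the 9 members were called, against 12.9% of all genes. Ccn1 came closest, with 52.2 and 53.1 CPM in cKO and 24.4 and 23.5 CPM in control libraries. The libraries of a group lay close together, and the log2 fold change was 1.14 (SE 0.29, adjusted p = 0.0505); it passed under other settings, such as another normalization (adjusted p = 0.0492). Ccn2 was 262 and 143 CPM in cKO and 102 and 120 CPM in control libraries (log2 fold change 0.84, adjusted p = 0.157). Ccn2 was highest in the endocardial cluster, marked by Npr3 and Nrg1, at 925 and 643 CPM in cKO and 173 and 271 CPM in control libraries, a cluster that also held cardiomyocyte markers. In the largest endothelial cluster it was 119 and 42.3 CPM in cKO and 58.3 and 33.8 CPM in control libraries, which overlap. Summed cardiomyocyte markers in endothelial nuclei were 10868 and 7240 CPM in cKO and 20051 and 14678 CPM in control libraries, and their part in these values was not tested. Wwtr1 was 522 and 581 CPM in cKO and 345 and 408 CPM in control libraries (log2 fold change 0.54, adjusted p = 0.281). Lats2 was 124 and 132 CPM in cKO and 81.3 and 97.5 CPM in control libraries (0.50, adjusted p = 0.372). Both were higher in each cKO library than in either control library without passing. Ajuba ran the other way, at 9.75 and 9.58 CPM in cKO and 20.3 and 14.8 CPM in control libraries, again without passing (log2 fold change -0.78, adjusted p = 0.478).

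In mural nuclei Ccn2 alone passed among the 9 members tested, where 0.153% of all 8506 genes passed in either direction and 0.106% as higher. It measured 553 and 260 CPM in cKO and 163 and 75.8 CPM in control libraries. The groups did not overlap, though the libraries within each group lay far apart (log2 fold change 1.88, SE 0.35, adjusted p = 0.00701). The call was lost with DESeq2 (adjusted p = 1.00), without control 1 (0.256), without control 2 (0.669), at a stricter mitochondrial limit and at a higher minimum depth. In the small smooth muscle cluster it was 1660 CPM in cKO 1 (20 nuclei) and 168 CPM in cKO 2 (44 nuclei), against 206 CPM in control 2 (26 nuclei). Control 1 had only 6 nuclei there and is left out. In cKO 1 a single mural nucleus held 37 of the 187 Ccn2 UMIs of the class. In the pericyte cluster Ccn2 was 366 and 249 CPM in cKO and 161 and 63.0 CPM in control libraries. Ccn1 was 59.2 and 24.5 CPM in cKO and 12.2 and 18.7 CPM in control mural nuclei, which did not overlap, and did not pass (log2 fold change 1.20, SE 0.55, adjusted p = 0.887). These Ccn1 values rest on only 20 and 17 UMIs in cKO and 3 and 18 UMIs in control libraries. Yap1, Wwtr1, Tead1 and Lats2 overlapped between the groups in this class, with log2 fold changes from -0.02 to 0.31. Summed fibroblast markers in mural nuclei were 2506 and 1741 CPM in cKO and 2609 and 1977 CPM in control libraries.

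In macrophages 0 of the 7 members tested passed by edgeR or by DESeq2, 1 had an unadjusted p under 0.05, against 11.1% of all genes, and 0.824% of all 10682 genes passed in either direction and 0.543% as higher. Ccn2 was 225 CPM in cKO 1 and 48.5 CPM in cKO 2, against 54.6 and 52.1 CPM in control libraries, so the high value was that of cKO 1 alone (log2 fold change 1.35, SE 0.53, adjusted p = 0.314). Summed fibroblast markers in macrophages were also highest in cKO 1, at 2845 CPM, with 750 CPM in cKO 2 and 1600 and 1248 CPM in control libraries. Their part in that Ccn2 value was not tested. Tead1 was 142 and 83.7 CPM in cKO and 181 and 178 CPM in control macrophages (log2 fold change -0.67, adjusted p = 0.465). Lats2 was 95.1 and 71.2 CPM in cKO and 95.6 and 105 CPM in control macrophages, with cKO 1 and control 1 nearly equal. Ccn4 was not tested in endothelial nuclei, mural nuclei or macrophages, nor Ccn5 and Ajuba in macrophages, because their counts were too low.

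**Figure D4:**
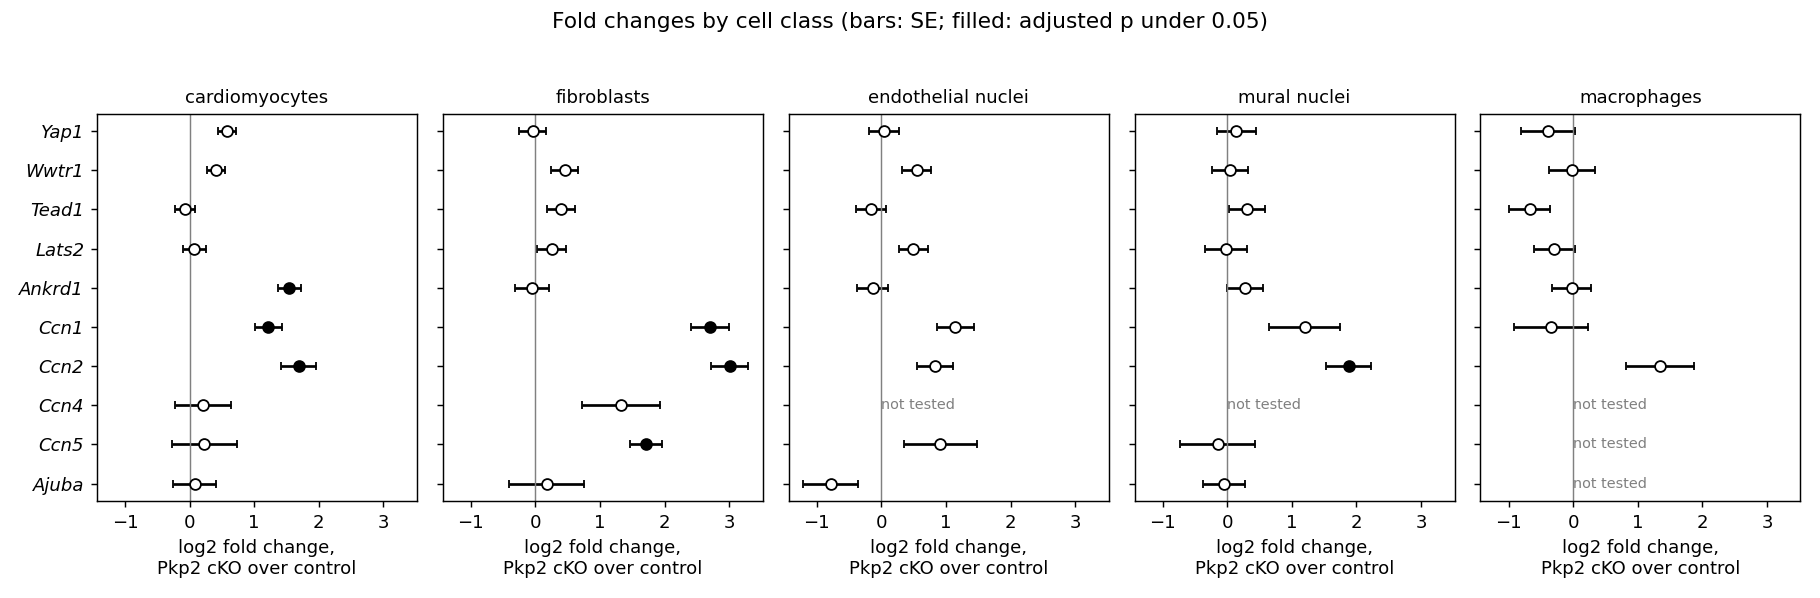
Log2 fold change of cKO over control for each member in each class, with the standard error as bars; filled points passed an adjusted p of 0.05 over all genes of the class. Ankrd1 passed in cardiomyocytes and in none of the other 4 classes, and Ccn2 passed in cardiomyocytes, fibroblasts and mural nuclei.

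Whether the cKO effect on a member differed between classes was tested as an interaction, with the library as a block, in 10 pairs of classes and 97 tests of members. Of these 14 passed, on 6 members. The effect on Ankrd1 was larger in cardiomyocytes: on the log2 scale it exceeded that in fibroblasts by 1.51 (SE 0.17), that in endothelial nuclei by 1.65, that in mural nuclei by 1.28 and that in macrophages by 1.57. The effects on Ccn1, Ccn2 and Ccn5 were smaller in cardiomyocytes than in fibroblasts, with differences of -1.52, -1.29 and -1.51. The effect on Ccn2 in fibroblasts was larger than in endothelial nuclei by 2.27 and than in mural nuclei by 1.13. In these tests 6.21% of all genes passed between cardiomyocytes and fibroblasts, 4.86% between cardiomyocytes and endothelial nuclei, 1.18% between cardiomyocytes and mural nuclei, 1.55% between cardiomyocytes and macrophages, 5.08% between fibroblasts and endothelial nuclei and 1.96% between fibroblasts and mural nuclei. No member passed between fibroblasts and macrophages (0.259% of all genes), endothelial and mural nuclei (0.419%), endothelial nuclei and macrophages (0.153%) or mural nuclei and macrophages (0%). Leaving out a library gave 6 to 26 calls, the lowest without control 2. The fits leave 2 residual degrees of freedom, and without the library term 0 of the 97 tests passed, so the small p-values rest on treating the classes of a library as paired.

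Other genes of the pathway, from lists of 33 Hippo components and 25 further YAP targets, gave few calls in any class except the further targets in fibroblasts. Beside the counts stand the shares of all genes that passed. Of 31 Hippo components tested in cardiomyocytes, Mob1b, a coactivator of the LATS kinases, rose to 70.3 and 71.7 CPM in cKO libraries, against 37.0 and 45.2 CPM in control libraries (log2 fold change 0.78, adjusted p = 0.0396). The other 30 did not pass, so 1 of 31 passed where 2.89% of all genes did. None passed in fibroblasts (0 of 30, against 3.47% of all genes) or endothelial nuclei (0 of 31, against 2.08%). The same held for macrophages (0 of 30, against 0.824%) and mural nuclei (0 of 28, against 0.153%). Of 20 further targets tested in cardiomyocytes 2 rose and none fell, where 1.32% of all genes passed as higher, among them Tgfb2, a TGF-beta ligand, which measured 59.1 and 44.3 CPM in cKO and 17.9 and 15.3 CPM in control libraries (log2 fold change 1.64, adjusted p = 0.00465). The median of those 20 was -0.01, against 0.00 for all genes. Ankrd23, a relative of Ankrd1, rose in cardiomyocytes to 213 and 208 CPM, against 120 and 135 CPM in control libraries (log2 fold change 0.72, adjusted p = 0.0306).

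In fibroblasts 5 of 21 further targets rose and none fell, where 2.13% of all genes passed as higher, with a median of 0.68 against 0.00 for all genes. Among them were Ptgs2, the inducible prostaglandin synthase (log2 fold change 3.50), the matricellular Thbs1 (2.76), the collagen gene Col8a1 (1.41) and Ccdc80 (0.91), with adjusted p from 0.000220 to 0.0428. Thbs1 measured 126 and 169 CPM in cKO and 25.5 and 20.03 CPM in control fibroblasts. In endothelial nuclei, where 0.521% of all genes passed as higher, 1 of 19 rose, the endothelin gene Edn1 (log2 fold change 1.54, adjusted p = 0.0218). In macrophages, where 0.543% of all genes passed as higher, 1 of 15 rose, Dock5 (2.74, adjusted p = 0.00816).

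Ccn1 and Ccn2 are also known as genes induced quickly by serum and stress, and so a list of immediate early genes was added after the data were seen. In cardiomyocytes 5 of 11 rose, where 1.32% of all genes passed as higher: Fos (log2 fold change 2.98), Nr4a1 (1.75), Junb (1.54), Btg2 (1.49) and Ier3 (1.43). In fibroblasts 5 of 10 rose, where 2.13% of all genes passed as higher: Egr1 (2.06), Nr4a1 (1.80), Junb (1.63), Ier3 (1.502) and Zfp36 (1.49). In endothelial nuclei 0 of 10 passed (2.08% of all genes) and in mural nuclei 0 of 7 (0.153%). In macrophages 1 of 11 rose, Atf3 (2.34), where 0.543% of all genes passed as higher. Their part in the Ccn1 and Ccn2 values was not tested.

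The genes whose level was most like that of each member were sought over the 20 sums of 5 classes and 4 libraries, by Pearson's r of log2(CPM + 1) among 16791 genes. The sums share libraries and class differences dominate them, so r is a description. Ankrd1 was most like Gm14174 (r = 0.96), Actc1, the cardiac actin (0.96), and Mybpc3, a myosin-binding protein (0.96). Ccn5 was most like Tmem45a (0.95), Col3a1 (0.94) and Mfap4 (0.94), genes of fibroblasts and matrix. Ajuba was most like Colec11 (0.98), the pericyte marker Rgs5 (0.96) and Ano1 (0.96). Ccn2 was most like Kdelr1 (0.88) and Tnc (0.84), Ccn1 like Prnp (0.82), Slc39a14 (0.82) and Synpo (0.79), and Ccn4 like Wnt5a (0.89). Yap1 was closest to Grb10 (0.94), Tead1 to Meis2 (0.93), Wwtr1 to Lmtk2 (0.92) and Lats2 to Dock1 (0.95).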

How the data were processed

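Nuclei of pooled hearts were profiled with BD Rhapsody. The deposited matrices hold whole-number UMI counts per gene and cell label, and the submitters' processing notes name the build mm10; the sources used here do not give the aligner, the counter or the handling of strand and introns. The extract protocol names a sort of nuclei, which can set class shares.

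Nuclei with at least 300 genes and 500 UMIs and at most 5% mitochondrial UMIs were kept, and the top 0.5% by UMIs and scored doublets were removed. Doublet removal was unequal: the automatic call took 13.5% of nuclei in cKO 2, and the top 6% by score were taken in the other libraries. Taking the top 6% in every library was an alternative. Clusters (scanpy 1.11.5, leidenalg 0.10.2, resolution 1, Python 3.11.15) were named from marker lists; the naming details were set with the data in view. Counts were summed per library and class and tested with edgeR 4.0.16 (TMM, filterByExpr, quasi-likelihood; limma 3.58.1, R 4.3.3), Benjamini-Hochberg over all genes of a class, threshold 0.05. An exact permutation test of 2 against 2 libraries cannot go below p = 0.333 and was not used. DESeq2 1.42.0, RLE scaling, no filter, a replicate block, left-out libraries, other cell filters and other clustering were alternatives. The main edgeR fit of each class was tested on simulated counts, while the interaction fits and the alternatives were not.

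The members and lists were chosen with earlier results of these data known. The text names all members, up to 6 genes of each list that passed in a class, and the 3 genes most like a member, shortened for some; a few genes these rules select are not reported here. All immediate early genes that passed are named. Coordinates are from GENCODE M21, matched by Ensembl ID.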

Additional observations from a re-analysis of the deposited data

Results flagged for a closer look

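In 14 cases the cKO effect on a member differed between a pair of classes by an interaction test (edgeR with the library as a block, adjusted over all genes), given as the log2 fold change in the first class minus that in the second. Between cardiomyocytes and fibroblasts the differences were 0.61 for Yap1 (adjusted p = 0.0184), -0.50 for Tead1 (0.0233), 1.51 for Ankrd1 (1.92e-13), -1.52 for Ccn1 (8.72e-06), -1.29 for Ccn2 (2.77e-10) and -1.51 for Ccn5 (0.000736). Between cardiomyocytes and endothelial nuclei they were 1.65 for Ankrd1 (2.72e-10) and 0.98 for Ccn2 (0.000231). For Ankrd1 the difference was 1.28 between cardiomyocytes and mural nuclei (7.10e-06) and 1.57 between cardiomyocytes and macrophages (0.000624). Between fibroblasts and endothelial nuclei the differences were 1.59 for Ccn1 (0.00577) and 2.27 for Ccn2 (4.74e-08). Between fibroblasts and mural nuclei they were 1.13 for Ccn2 (0.00133) and 2.01 for Ccn5 (0.00309). The Yap1 and Tead1 differences were lost whichever library was left out, and none of the 14 passed without the library term.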

How the results depend on the processing

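The calls of Ankrd1, Ccn1 and Ccn2 in cardiomyocytes and of Ccn2 and Ccn5 in fibroblasts were kept in all 14 alternatives, and that of Ccn1 in fibroblasts in the 13 where it was tested; no member changed direction in a called value. The cause of the changes below was not tested. The titles share replicate numbers, with deviations of same-numbered libraries correlated at 0.509 in cardiomyocytes, 0.378 in fibroblasts, 0.339 in endothelial nuclei, 0.204 in macrophages and 0.194 in mural nuclei, but 2 pairs do not show that the numbers pair the samples. With the replicate block, genes changed numbered 3908 of 15406 in cardiomyocytes (446 without it), 1877 of 12173 in fibroblasts (422) and 1805 of 11515 in endothelial nuclei (240). They numbered 372 of 10682 in macrophages (88) and 28 of 8506 in mural nuclei (13). Beside these shares, members changed numbered 5 in cardiomyocytes (with Yap1 and Wwtr1), 5 in fibroblasts (with Wwtr1 and Tead1) and 4 in endothelial nuclei (Wwtr1, Lats2, Ccn1 and Ccn2). Without the low-count filter, genes changed numbered 813 in cardiomyocytes, 370 in endothelial nuclei and 203 in macrophages, and members 2 in endothelial nuclei (Ccn1, Ccn2) and 1 in macrophages (Ccn2, adjusted p = 0.0382). At a limit of 1% mitochondrial UMIs, genes changed numbered 123 in fibroblasts, 4 in endothelial nuclei, 13 in macrophages and 0 in mural nuclei, and members 2 in fibroblasts and 0 in mural nuclei. At 1000 UMIs or more per nucleus, genes numbered 1 in mural nuclei and 54 in macrophages, and members 0 in mural and 1 in endothelial nuclei. DESeq2 gave 1 gene and 0 members in mural nuclei. Equal doublet removal gave 162 genes in macrophages, and it, RLE scaling and clustering without the lists each gave 1 member in endothelial nuclei (Ccn1); the last gave 467 genes there. Without mixed clusters, an alternative added after seeing the data, 11 genes changed in endothelial nuclei. Leaving out a library gave 0 (without cKO 2) to 285 genes in endothelial nuclei, 0 (without either control) to 56 in mural nuclei, with 0 to 1 members, and 0 (without either cKO) to 109 in macrophages, the lone library being assumed to vary like the other group. Effects that differed between classes numbered 14, 0 without the library block, and 6 (without control 2) to 26 (without cKO 1) with a library left out. Low counts left Ccn4 untested in 3 classes.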
